A study of Brassica rapa with 6 samples.

Results

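Transcripts that run past the ends of annotated genes, or that start just after them, were examined in Chinese cabbage (Brassica rapa). They were the assembled linear transcripts to which the deposited isoform table gives the class code o or p, outside 1 block of chromosome A06. There were 1402 class o and 997 class p transcripts, 2399 of 72949 in the table, and the block left out 37 further class o transcripts and 0 class p transcripts. Each transcript carries the name of an annotated gene, and the annotated transcript of that gene (class =, 45513 in the table) is called its gene here.

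In the code scheme that transcript assemblers use, o marks a transcript that overlaps the exons of a gene on the same strand without sharing its splice junctions, and p marks a fragment that lies beyond a gene with no overlap, as RNA polymerase running on past a gene would leave. Transcription normally ends when the nascent RNA is cut at a polyadenylation signal, and the polymerase travels on for some distance before it leaves the DNA. Such a fragment can therefore belong to the gene before it, to an untranslated region that the annotation lacks, or to a separate unannotated gene, and its class code does not tell these apart.

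The libraries came from petiole (3 libraries) and leaf (3 libraries) of wild type plants raised in a greenhouse, to compare the tissues as the series' design states. The petiole is the pale stalk and midrib that carries and supplies the green blade. The libraries were stranded and made from total RNA after removal of ribosomal RNA, which keeps RNA that lacks a poly(A) tail. The labels do not say that libraries of a tissue came from separate plants, so p-values measure the spread between these libraries, which may be technical.

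The 6 libraries held between 111518411 and 132861243 estimated counts. Log2 transcript levels correlated at 0.903 to 0.910 between libraries of 1 tissue and at 0.767 to 0.774 between tissues. Levels are given as CPM, counts scaled to the TMM library size, and only transcripts averaging 10 counts or more across the 6 libraries were tested. Chlorophyll a-b binding proteins, markers of green tissue, summed to 336 to 369 CPM in petiole libraries and 3655 to 4054 CPM in leaf libraries. The guard cell anion channel SLAC1 was at 0 in all petiole libraries and at 3.43 to 5.43 CPM in leaf libraries, and the phloem sucrose carrier SUC2 stood at 58.4 to 65.7 CPM in petiole and 156 to 175 CPM in leaf. Xylem cysteine proteinase went the other way, at 7.39 to 9.54 CPM in petiole and 4.81 to 6.02 CPM in leaf. In such bulk samples, fewer cells of a type and less RNA per cell cannot be told apart.

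Class o transcripts were spliced. All had at least 2 exons, and 1017 of 1402 (72.5%) had exactly 2. Their exons summed to a median of 1332.5 bases, against a median of 945 bases for the genes they were paired with. Every annotated gene model in the table has a length that is a multiple of 3, so these models hold coding length and no untranslated regions. A transcript with ordinary untranslated regions therefore runs past both annotated ends by construction.

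Of the class o transcripts, 621 (44.3%) ran past both ends of the gene, 419 (29.9%) past the start only, 300 (21.4%) past the end only, and 61 (4.35%) stayed between the ends, while 1 had no annotated transcript to compare with. Those that passed the start did so by a median of 535.5 bases, and those that passed the end by a median of 718 bases. A tail reached much further: 325 passed an end by more than 2000 bases and 91 by more than 10000 bases, and the longest spanned 446037 bases. On the other strand 173 (12.3%) overlapped an annotated gene, and 158 overlapped a further gene on their own strand. The transcripts were not independent of each other, since 549 of them took part in 642 overlapping pairs and 1104 gene names served all 1402.

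Class p transcripts were short, unspliced and close behind their gene. All 997 had 1 exon, and their median length was 356 bases, from 200 to 6384. All lay after the gene's end as the gene's strand reads, none before its start. This place follows from the class code, which marks fragments that lie beyond a gene with no overlap. The gap was 0 to 1994 bases with a median of 674, so that the assembly's limit of 2000 bases set their reach. For 737 of them (73.9%) the table gives no strand, and the other 260 were on the gene's strand. For 233 another annotated gene lay nearer than the gene whose name they carry. The gap was 250 bases or less in 219 transcripts, 251 to 500 in 173, 501 to 1000 in 273 and 1001 to 2000 in 332. A class p transcript was never in the same assembly locus as its gene, whereas 1289 class o transcripts were.

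**Figure D1:**
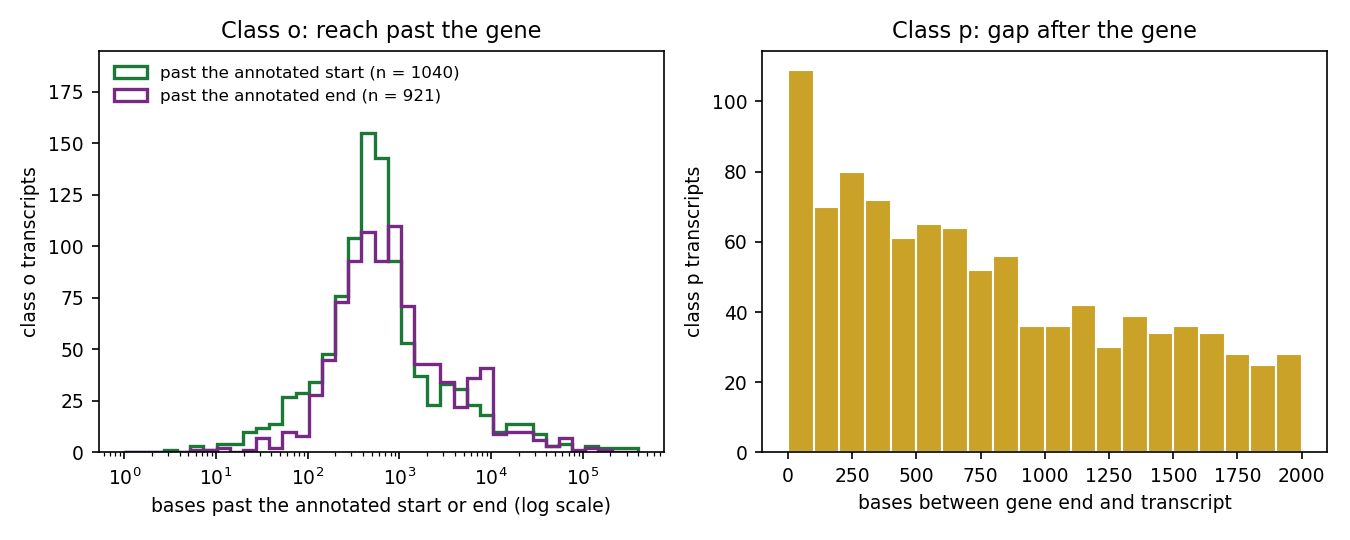
Left, the number of class o transcripts by the bases they reach past the annotated start (green) or end (purple) of their gene, on a log axis; right, the number of class p transcripts by the gap between the gene's end and the transcript, in bins of 100 bases. Class o reach is centred near its medians of 535.5 and 718 bases with a tail past 10000, and class p transcripts thin out from the gene's end towards 2000 bases.

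Both classes lay on all 10 chromosomes. Class o transcripts numbered from 2.58 per 100 annotated transcripts on A08 to 3.88 on A04, and class p transcripts from 1.83 on A05 to 2.53 on A09. Only 27 genes had a transcript of each class. The gene was at 0 counts in all 6 libraries for 124 class o transcripts (8.85%) and 167 class p transcripts (16.8%). No protein is named in the description of 565 class o and 395 class p genes.

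In class p, a few transcripts held most of the counts. The middle class o transcript had a mean of 354.8 counts per library and the middle class p transcript 59.5 counts. The 5 most abundant held 39.0% of all class o counts and 81.7% of all class p counts. Per length, in FPKM, a class o transcript stood above its gene in every library in 170 of 1079 pairs (15.8%) and below it in every library in 464 (43.0%), and the class p figures were 111 (16.5%) and 299 (44.4%) of 673 pairs. Only pairs with a mean of at least 10 counts in both transcript and gene were compared. The gene was under that mean for 309 class o and 290 class p transcripts, so these shares do not cover them.

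The most abundant class o transcript (MSTRG.10518.4, A04 271733 to 331927) covers a stretch of A04 with genes described as mitochondrial, among them NADH dehydrogenase subunit 7. It had 736784, 666378 and 659987 counts in petiole and 731939, 720182 and 687766 in leaf. It stood at 4905 ± 122 CPM in petiole and 6756 ± 285 CPM in leaf (SD, n = 3), with no overlap, and fell by 0.46 on the log2 scale (adjusted p = 0.000635). On the FPKM scale its direction turned to a rise of 0.23. The 10 transcripts of its assembly locus summed to 28833.7, 30298.5 and 28414.6 CPM in petiole and 12369.6, 32991.3 and 34654.5 CPM in leaf. That sum overlapped between the tissues and was not called (edgeR, log2 fold change 0.13, adjusted p = 0.826). A second member of that place (MSTRG.10518.9) had 51930, 0 and 30266 counts in petiole and 0, 0 and 135786 in leaf.

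The next most abundant class o transcript joined distant places. MSTRG.1939.1 spans A01 18124488 to 18531922 with 2 exons that sum to 916 bases. Its span takes in 41 annotated genes and ends 445 bases past a partial copy of the chloroplast gene for the large subunit of Rubisco, the carbon-fixing enzyme. It had 1274, 1060 and 46271 counts in petiole and 442931, 609252 and 490580 in leaf. The leaf libraries were all higher, but petiole library 3 stood far above the other petiole libraries, and the difference was not called (log2 fold change -5.32 ± 1.83 SE, adjusted p = 0.0896).

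At a putative F-box gene of A02 (BraA02g012690.3C), of a family of substrate adaptors of ubiquitin ligases, counts changed from library to library. Of its class o transcripts, whose starts differ by 1 base, MSTRG.3959.1 had 0, 0 and 234656 counts in petiole and 0, 7477 and 10223 in leaf, and MSTRG.3959.2 had 271063, 386 and 733 in petiole and 20, 281 and 125 in leaf. In each, 1 petiole library held nearly all counts, and it was not the same library. The gene's annotated transcript was at 0 throughout, and neither difference was called (adjusted p = 0.604 and 0.109); MSTRG.3959.2 was chosen after its values were seen. The remaining abundant class o transcript, MSTRG.15430.1 of A06 with 16 genes in its span, had 54331, 54682 and 52152 counts in petiole and 71998, 36992 and 870 in leaf, and its difference was not called.

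Among class p transcripts, 1 pair overlapped, and its counts were divided differently in each tissue. MSTRG.28092.1 (322 bases, plus strand, behind BraA09g058710.3C) and MSTRG.28093.1 (300 bases, minus strand, behind the MADS-box gene AGL61, BraA09g058720.3C) share 300 bases of A09, at 41578748 to 41579047. The plus-strand transcript had 1473529, 0 and 1311526 counts in petiole and 648606, 474621 and 725320 in leaf. The minus-strand transcript had 0, 1333310 and 0 counts in petiole and 648606, 474621 and 725319 in leaf. In leaf the counts were split equally to within 1 count, and in petiole all of them went to 1 of the strands in each library.

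Summed over both strands, the place had 9791 ± 223 CPM in petiole and 11710 ± 2668 CPM in leaf (SD, n = 3), and the tissues overlapped. Neither transcript by itself was called (adjusted p = 0.970 and 0.889). The sum was formed after the values were seen.

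Of the other abundant class p transcripts, counts were steady within each tissue in MSTRG.12315.1 but not in MSTRG.4287.1. MSTRG.12315.1, 399 bases behind the uncharacterized gene BraA04g029180.3C on A04, had 551959, 517880 and 513396 counts in petiole and 251266, 248707 and 280953 in leaf. It was higher in every petiole library than in any leaf library and rose by 0.61 ± 0.063 (SE, log2; adjusted p = 0.00161), while its gene had 0, 12 and 0 counts in petiole and 0 in every leaf library. MSTRG.4287.1, 1321 bases behind an F-box/kelch-repeat gene of A02, had 296505, 1846265 and 1741955 counts in petiole and 649891, 629446 and 759506 in leaf. Petiole library 1 stood below the leaf libraries and the others above them, and the difference was not called (adjusted p = 0.611). MSTRG.3916.1 of A02 overlapped between the tissues, with a log2 fold change of -0.10 ± 0.34 (SE).

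A class p transcript 62 bases behind an expansin-A16-like gene, a wall-loosening protein (BraA04g004550.3C), also changed from library to library; it was chosen after its values were seen. It had 159062, 155078 and 149629 counts in petiole and 4, 174598 and 6 in leaf. Only leaf library 2 reached the petiole level, and the difference was not called (adjusted p = 0.839). The expansin transcript itself had 0 counts in every petiole library and 176, 211 and 148 in leaf.

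As shares of a library's counts, class o transcripts made up 2.29, 1.98 and 2.30% in petiole and 2.45, 2.40 and 2.49% in leaf. The petiole shares were all lower (difference -0.26 percentage points; two-sided exact permutation p = 0.1, and 3 against 3 libraries cannot give a smaller one). Without the 5 most abundant transcripts the order turned, to 1.66, 1.42 and 1.45% in petiole and 1.37, 1.26 and 1.30% in leaf, a choice made after the values were seen. Class p transcripts made up 2.44, 3.62 and 3.73% in petiole and 2.41, 2.16 and 2.83% in leaf, which overlapped (exact permutation p = 0.2).

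More members were detected in petiole. With at least 3 counts, 1246, 1239 and 1240 class o transcripts were detected in petiole libraries and 1206, 1215 and 1208 in leaf libraries. For class p the numbers were 882, 858 and 863 in petiole and 832, 832 and 819 in leaf. Neither class overlapped between the tissues, and each test reached its smallest exact p of 0.1. Total counts ran from 120805715 to 132861243 in petiole libraries and from 111518411 to 121161682 in leaf libraries, and the part of depth in this difference was not tested. Detection over all transcripts of the table was not counted, so the difference cannot be called particular to these classes.

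Between the tissues, 160 class o transcripts were higher and 168 lower in petiole of 1386 tested (edgeR quasi-likelihood test, adjusted p below 0.05), 23.7% in all, with 11.5% higher and 12.1% lower. The background over all 52982 tested transcripts was 29% (15.2% higher and 13.8% lower). It was 33.8% for annotated transcripts (18.2% higher, 15.7% lower) and 24.4% for class j, the spliced variants of annotated genes (12.8% higher, 11.6% lower), so that the class o share was close to that of class j. The tissues did not overlap in 604 class o transcripts (43.6%), against 49.8% of all tested, 55.8% of annotated transcripts and 42.5% of class j. The median log2 difference was -0.11 over class o transcripts and 0.03 over all, and both were the same with transcripts at 0 in 1 tissue set to their bounds. On the log2(FPKM + 1) scale, on which the median of all transcripts was 0.35 higher in petiole, limma called 374 class o transcripts higher and 111 lower.

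By the way they reached past the gene, the shares of class o transcripts called were 28.8% of 617 past both ends, 26.9% of 294 past the end only, 14.0% of 415 past the start only and 22.0% of 59 between the ends. Differences between these shares were not tested, since overlapping transcripts share reads.

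The 8 largest rises all had 0 counts in every leaf library, and their genes include regulators of transcription and an enzyme of the cell wall. For these, a fold is given as a lower bound against 3 counts over the 3 leaf libraries (0.00947 CPM). The bound allows for counting error alone, and an estimate set to 0 by the authors' software would break it. Altogether, 18 class o (1.3% of those tested) and 21 class p transcripts (2.22%) were called higher with 0 counts in all leaf libraries, against 1.37% of all tested transcripts. Called lower with 0 counts in all petiole libraries were 6 class o (0.433%) and 12 class p transcripts (1.27%), against 1.01% of all.

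Both class o transcripts of the ethylene-responsive transcription factor ERF019 (BraA09g040260.3C, A09 31435845 to 31436906) ran 627 bases past the gene's end. Members of this family bind DNA and act downstream of ethylene and stress signals. MSTRG.26779.1 had 1009, 788 and 427 counts in petiole and 0 in all leaf libraries, at least 551-fold higher (adjusted p = 0.00256). MSTRG.26779.2 had 787, 388 and 485 counts in petiole and 0 in all leaf libraries, at least 413-fold higher. The ERF019 transcript itself had 1254, 1047 and 1529 counts in petiole and 56, 74 and 91 in leaf, a rise of 3.71 ± 0.31 (SE, log2; adjusted p = 0.000726). Summed over all transcripts of the assembly locus the rise was 4.67 on the log2 scale, and every leaf count of the locus stood under the annotated model. Both class o transcripts overlap a putative methyltransferase gene on the other strand by 3 bases.

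An NPR5-like gene (BraA04g029210.3C), related to the BLADE-ON-PETIOLE regulators that pattern the leaf base in Arabidopsis, had a class o transcript that starts 1282 bases upstream of it. The transcript had 370, 370 and 329 counts in petiole and 0 in leaf (at least 268-fold higher), and the gene rose by 4.53 on the log2 scale (adjusted p = 0.00572). Summed over the assembly locus the rise was 4.59 on the log2 scale. That upstream reach overlaps a second NPR5-like gene on the same strand, so reads of the copies may be shared between them. A galacturonosyltransferase-like 6 gene (BraA03g029210.3C), of a family that acts in wall polysaccharide synthesis, had a class o transcript with 527, 150 and 911 counts in petiole and 0 in leaf (at least 405-fold higher). The transcript's call was lost without petiole library 1 (adjusted p = 0.0623), and the gene's annotated transcript was at 0 throughout. The 4 transcripts of the locus summed to 8.76, 10.2 and 11.1 CPM in petiole and 1.32, 1.85 and 1.15 CPM in leaf. That sum rose by 2.80 on the log2 scale.

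A class o transcript of a STRICTOSIDINE SYNTHASE-LIKE 9-like gene (BraA09g047690.3C) had 497, 646 and 362 counts in petiole and 0 in leaf, at least 377-fold higher, and its gene rose by 1.80 on the log2 scale. That of BraA10g003440.3C had 1229, 681 and 1064 counts in petiole and 0 in leaf, at least 746-fold higher, and its gene was not called. Neither overlapped between the tissues. Summed over all transcripts of each assembly locus, the log2 rises were 2.62 and 3.31, and every leaf library held counts at both loci.

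At a pair of genes the class o transcript rose while the sum of its locus was not called. The class o transcript of BraA03g024600.3C, which begins 522 bases upstream of that uncharacterized gene, had 568, 381 and 285 counts in petiole and 0 in every leaf library. The annotated transcript had 17, 40 and 31 counts in petiole and 340, 299 and 302 in leaf, and fell by 3.81 on the log2 scale (adjusted p = 0.00303). Neither transcript overlapped between the tissues, and they moved in opposite directions. Their sum stood at 3.87, 2.96 and 2.36 CPM in petiole and 3.34, 2.79 and 2.93 CPM in leaf, and was not called (adjusted p = 0.936). At BraA10g031930.3C a class o transcript had 423, 349 and 352 counts in petiole and 0 in all leaf libraries, while the 9 transcripts of its locus summed to 70.1, 70.7 and 65.7 CPM in petiole and 62.4, 68.6 and 68.1 CPM in leaf (adjusted p = 0.440).

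The 8 largest falls included transcripts named for defence and chromatin genes. The class o transcript of a pathogenesis-related PR-4-like gene (BraA03g031820.3C, A03 15804358 to 15805861), a chitin-binding defence protein, had 50, 0 and 27 counts in petiole and 10460, 10522 and 10625 in leaf. It stood at 0.180 ± 0.170 CPM in petiole and 99.8 ± 2.70 CPM in leaf (SD, n = 3) and fell by 9.10 ± 1.46 (SE, log2; adjusted p = 0.00806). The annotated PR-4-like transcript fell as well, with 11, 28 and 1 counts in petiole and 438, 277 and 666 in leaf. The longer transcript runs 1009 bases past the gene and overlaps an ankyrin repeat gene on the other strand, which was not called.

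At BraA03g012230.3C the class o transcript had 0 counts in all petiole libraries and 817, 1045 and 844 in leaf (at least 1195-fold lower in petiole). Its gene was at 0 throughout, and the transcript overlaps an ECERIFERUM 3-like gene, named after a protein of cuticular wax synthesis, on the other strand. That wax gene's annotated transcript fell as well (adjusted p = 0.00107). MSTRG.26701.1, at BraA09g039070.3C, had 0 counts in all petiole libraries and 3306, 2634 and 2569 in leaf (at least 3773-fold lower).

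A chromatin-remodeling ATPase gene (BraA05g039020.3C) named a class o transcript whose 3 exons sum to 261 bases over a span from A05 26581259 to 26997646. It had 0, 2 and 6 counts in petiole and 5443, 7062 and 4824 in leaf and fell by 11.4 ± 1.04 (SE, log2; adjusted p = 0.00106). The ATPase transcript itself had 291, 222 and 216 counts in petiole and 110, 31 and 40 in leaf and was not called (adjusted p = 0.118). The span takes in 21 annotated genes on its strand, the ATPase gene among them, and 44 on the other strand.

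A class o transcript of the zinc finger gene AZF3 (BraA06g043870.3C) had 0 counts in all petiole libraries and 231, 415 and 87 in leaf (at least 322-fold lower), a call lost without leaf library 1 (adjusted p = 0.0546). The gene itself fell by 1.32 on the log2 scale. An L-type lectin receptor kinase transcript (BraA06g023480.3C) had 0 counts in petiole and 314, 16 and 471 in leaf (at least 359-fold lower), and its call was lost in 5 of the 6 fits that left out 1 library. MSTRG.2407.2, at BraA01g035520.3C, fell by 9.32 on the log2 scale. MSTRG.25447.2, at BraA09g017640.3C, fell by 8.24, a call lost in 4 of 6 such fits. Leaving out 1 library kept 7 of the 8 largest rises and 5 of the 8 largest falls called in every fit.

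**Figure D2:**
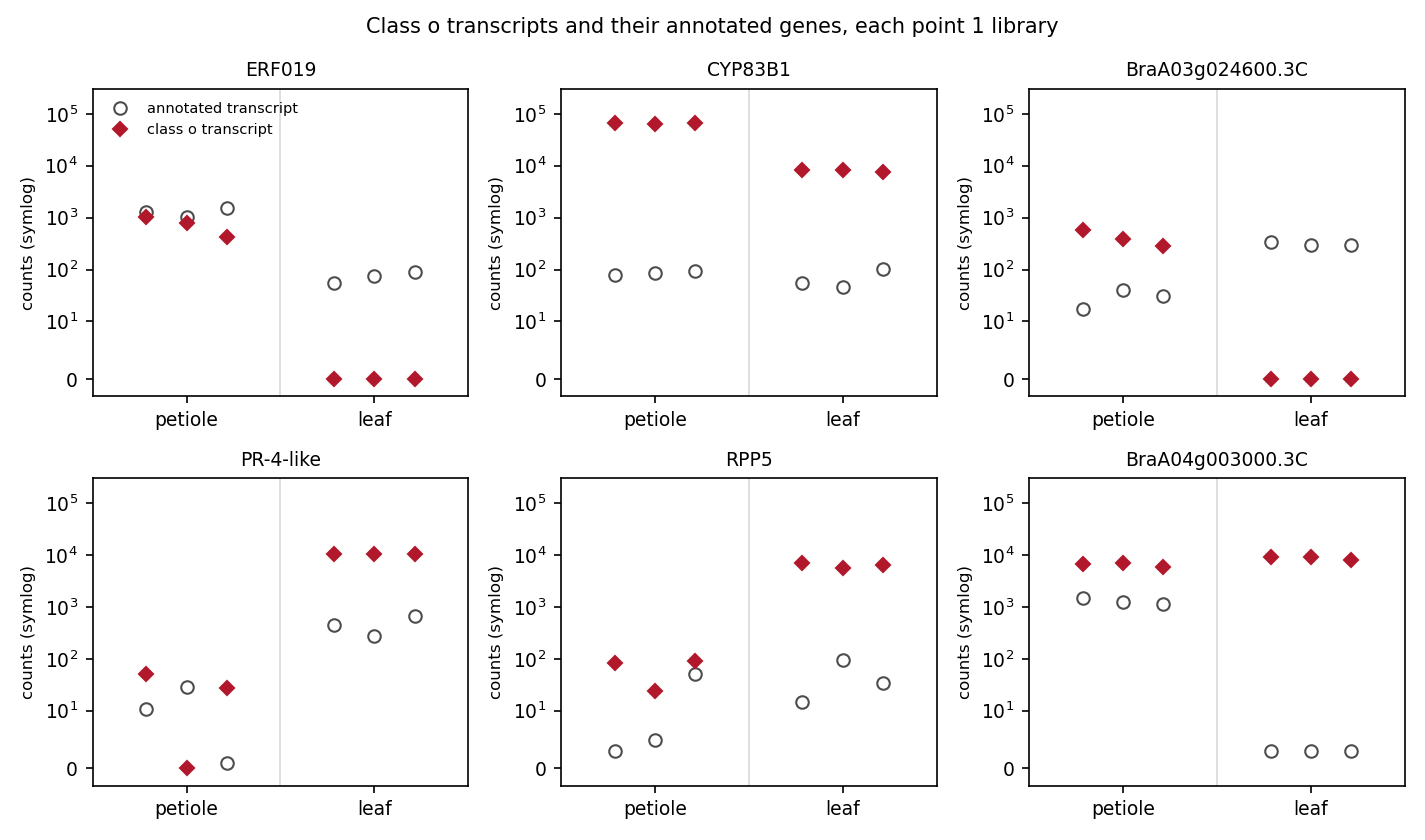
Counts per library of 6 class o transcripts (red diamonds) and of the annotated transcripts of their genes (open circles), petiole left and leaf right in each panel, on a symmetric log axis that is linear under 10 counts. The ERF019 and PR-4-like transcripts follow their genes, the CYP83B1 transcript changes while the annotated model has 103 counts or fewer, and the BraA03g024600.3C transcripts trade places.

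By the names of their genes, more cell wall transcripts of class o were called higher than lower, and more plastid ones lower than higher. Most of the plastid list was not called. Of 22 tested cell wall transcripts 10 rose and 2 fell, with a median log2 difference of 1.21, against 170 rises and 39 falls of 374 annotated cell wall transcripts. FASCICLIN-LIKE ARABINOGALACTAN 18 (BraA05g035210.3C), of a family of wall adhesion proteins, had 33102, 28594 and 26825 counts in petiole and 8894, 8908 and 9165 in leaf in its class o transcript, a rise of 1.30 ± 0.053 (SE, log2). Its annotated transcript was not called, with 1492, 1046 and 1097 counts in petiole and 899, 1563 and 737 in leaf. The class o transcript of FASCICLIN-LIKE ARABINOGALACTAN 17 (BraA03g002510.3C) rose by 1.36 in the same way, and both class o transcripts of an extensin-3-like gene (BraA07g040410.3C), a structural wall glycoprotein, fell by 5.30 and 4.99 with their gene (-4.22).

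Of 35 tested plastid transcripts of class o, 1 rose and 11 fell (median -0.96), against 148 rises and 689 falls of 1567 annotated ones. In the gene for subunit b' of the chloroplast ATP synthase (BraA01g005820.3C) the class o transcript had 2629, 2737 and 2505 counts in petiole and 14114, 15058 and 14469 in leaf. It fell by 2.88 ± 0.051 (SE, log2; adjusted p = 6.78e-06), and its gene by 3.25. The 50S ribosomal protein L29 transcript (BraA06g028680.3C) fell by 2.43, while that of a chloroplast malate dehydrogenase (BraA06g019480.3C), which exchanges reducing power, rose by 0.99 with its gene (1.22). Chlorophyll-binding marker genes fell between the tissues too, as given above, and their part in the plastid counts was not tested. On the FPKM scale 6 of these plastid transcripts were called higher and 8 lower, and 12 cell wall transcripts higher and 2 lower.

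Glucosinolates are the sulphur-rich defence compounds of the cabbage family. Of 3 class o transcripts of that list 2 rose, against 11 rises and 3 falls of 27 annotated ones. Among them was the transcript of CYP83B1 (BraA08g007500.3C), an enzyme of the core pathway of indole glucosinolates. Its class o transcript (A08 6302422 to 6304385) runs 1058 bases past the annotated end and had 66124, 64779 and 65736 counts in petiole and 8312, 8411 and 7496 in leaf. It stood at 468 ± 25.7 CPM in petiole and 76.4 ± 4.49 CPM in leaf (SD, n = 3), with no overlap, and rose by 2.62 ± 0.065 (SE, log2; adjusted p = 1.61e-05). The annotated model, from 6303480 to 6304385, had 79, 87 and 95 counts in petiole and 56, 47 and 103 in leaf and was not called. The sum of the locus rose by 2.56 on the log2 scale. Another class o transcript, of a nitrile-specifier protein 2-like gene (BraA08g002350.3C) that steers glucosinolate breakdown, rose by 1.57 on the log2 scale. It reaches 29852 bases upstream of a gene that was at 0 in every library.

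Transcription factor names covered 96 tested class o transcripts, of which 9 rose and 17 fell, against 236 rises and 276 falls of 1365 annotated ones. On the FPKM scale the split turned, with 24 higher and 13 lower. TCP4 (BraA05g032060.3C), a regulator of leaf growth and differentiation in Arabidopsis, had 138, 120 and 102 counts in petiole and 1530, 1492 and 1931 in leaf in its class o transcript. It fell by 4.20 ± 0.20 (SE, log2), and its gene by 3.89. The class o transcripts of an ERF119-like and an ERF119 gene (BraA02g036660.3C and BraA06g038610.3C) fell by 3.72 and 1.39, close to their genes (-3.80 and -1.53), and that of an ERF13-like gene (BraA09g000880.3C) rose by 3.31.

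Receptor kinase and immune receptor names covered 79 transcripts, of which 9 rose and 13 fell, against 124 rises and 114 falls of 690 annotated ones, and on the FPKM scale 17 were called higher and 13 lower. FERONIA is a receptor kinase of cell growth in Arabidopsis. Its class o transcript at BraA01g022330.3C had 24865, 23588 and 22392 counts in petiole and 10629, 10609 and 10085 in leaf and rose by 0.77 ± 0.035 (SE, log2), while the annotated model was at 0 in all libraries. That of a second FERONIA gene (BraA03g045600.3C) rose by 0.77 as well. A class o transcript that runs 8038 bases past a disease resistance gene RPP5 (BraA02g021280.3C) had 83, 24 and 89 counts in petiole and 6899, 5617 and 6329 in leaf and fell by 6.99 ± 0.63 (SE, log2).

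In the transport list, the class o transcript of the ABC transporter gene ABCG8 (BraA02g015060.3C) had 1948, 854 and 734 counts in petiole and 91, 62 and 42 in leaf and rose by 3.74 ± 0.53 (SE, log2), while its gene rose by 0.91. A phospholipid-transporting ATPase 5 transcript (BraA07g037030.3C) had 2870, 2680 and 2659 counts in petiole and 602, 617 and 617 in leaf, a rise of 1.75 beside 2.11 for its gene. In the other direction, a cadmium/zinc-transporting ATPase HMA3-like transcript (BraA01g007080.3C) had 434, 451 and 359 counts in petiole and 578, 819 and 517 in leaf. It fell by 1.03, a call lost in 5 of the 6 fits without 1 library. For translation, a cytosolic ribosomal protein S17-4-like transcript (BraA10g031650.3C) rose by 1.09 and its gene by 0.99. In the ubiquitin list, the transcript of the ligase gene ARI16 (BraA03g063040.3C) had 2723, 2003 and 2201 counts in petiole and 17579, 17338 and 14360 in leaf. It fell by 3.24 ± 0.13 (SE, log2), with a start 16869 bases upstream of a gene that held 7 counts or fewer in each library. None of these transcripts overlapped between the tissues.

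Hormone response names had 5 rises and 3 falls of 20, against 140 and 75 of 423 annotated transcripts. Water and ion transport had 4 and 2 of 27, against 189 and 105 of 728 annotated. Ubiquitin and proteasome names had 8 and 6 of 86, against 130 and 158 of 991. Cytosolic ribosome names had 2 rises and 0 falls of 9, against 142 and 2 of 256. RNA processing had 0 rises and 2 falls of 20, against 36 and 54 of 418, and the stress protein list 0 and 4 of 24, against 68 and 81 of 462. Over all tested transcripts, 15.2% were called higher and 13.8% lower. The keyword LEA of that stress list also matched words such as nuclear and nuclease, and its class o calls include a nuclear transcription factor Y subunit and a nuclear transport factor, so the list's name does not describe them. The single jasmonate and the single lignin transcript were not called, no class o transcript carried a photosynthesis name, and genes with no named protein had 49 rises and 71 falls of 555, against 1059 and 1117 of 7566.

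Where both were called, class o transcripts and their genes mostly moved in the same direction. Over 1079 pairs in which both were tested, the log2 differences of transcript and gene correlated at r = 0.31 and rho = 0.36. This is a description across transcripts that share libraries and, in part, reads, and transcripts at 0 in 1 tissue enter it with fitted values that depend on a prior count. The class o transcript was called in 254 of these pairs. In 125 pairs both were called, 115 of them in the same direction (92.0%), against 85.0% over all 1456 such pairs of the table.

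The ratio of transcript to gene differed between the tissues in 20 of 1079 class o pairs (limma on log2 ratios of CPM + 0.1), 7 higher and 13 lower in petiole, or 1.85% (0.649% and 1.2%). The background was 2.13% of all 19154 pairs (0.658% higher, 1.47% lower) and 2.02% of class j pairs (0.567% higher, 1.45% lower). Leaving out 1 library at a time kept 5 of these 20 in every fit. The chromatin-remodeling, BraA03g024600.3C and BraA04g003000.3C pairs were among the named pairs that were kept. At BraA04g003000.3C the class o transcript had 6673, 7084 and 5816 counts in petiole and 9316, 9242 and 8088 in leaf and fell by 0.85. Its annotated transcript had 1464, 1258 and 1123 counts in petiole and 3, 3 and 3 in leaf, and the log2 ratio was lower in petiole by 7.02 ± 0.35 (SE; adjusted p = 0.00215). The leaf counts of the gene lie below the pseudocount, so the size of this difference depends on it.

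At 1-aminocyclopropane-1-carboxylate oxidase 1 (BraA07g001200.3C), which makes ethylene, the annotated transcript rose by 4.30 on the log2 scale, with 6598, 6723 and 5605 counts in petiole and 212, 234 and 276 in leaf. The class o transcript, which starts 16080 bases upstream, had 40, 1 and 36 counts in petiole and 104, 68 and 66 in leaf and was not called. Its log2 ratio to the gene was lower by 6.02 ± 0.77 (SE; adjusted p = 0.0220), a call lost in each fit without 1 library. The ratio for CYP83B1 was higher by 2.61 ± 0.42 (SE; adjusted p = 0.0419) and was lost in the same way, with values between 2.27 and 2.84. The ratio falls for RPP5 and MSTRG.26701.1, and the rises for BraA09g050370.3C, BraA01g022310.3C, BraA05g032050.3C and BraA10g031930.3C, were each lost in 5 or 6 of the 6 fits.

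**Figure D3:**
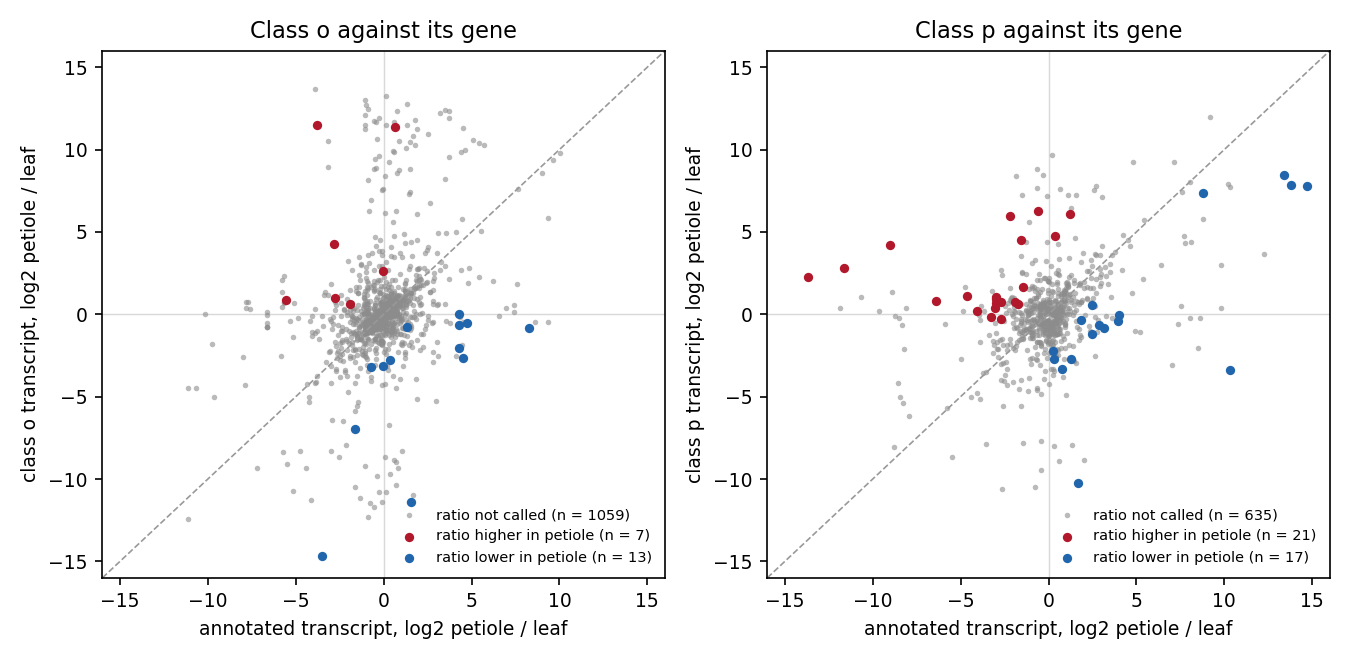
Log2 difference between petiole and leaf of each class o (left) and class p (right) transcript against that of the annotated transcript of its gene, from the edgeR fit. Points are 1079 and 673 pairs, coloured where the ratio of transcript to gene was called higher (red) or lower (blue) in petiole, and the dashed line marks equal differences; called class p points lie on both sides of it.

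Counted by assembly locus rather than by transcript, many more differences were called. The counts of all transcripts of a locus were summed, an alternative chosen after the data were seen, and 396 class o transcripts lay in a locus called higher and 538 in one called lower. Loci were called in 61.9% of 31974 tested (31.2% higher, 30.7% lower) and in 67.4% of the 1087 that hold a class o transcript (30.7% higher, 36.7% lower). Of the 160 class o transcripts called higher, 151 lay in a locus called higher, and of the 168 called lower, 160 lay in a locus called lower and 2 in one called higher.

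Of 947 class p transcripts tested, 93 were higher and 94 lower in petiole, 19.7% (9.82% and 9.93%) against the background of 29% given above, with a median log2 difference of 0.005. Class p had the lower median count, and the part of depth in that share was not tested. Limma on the FPKM scale called 268 higher and 91 lower. The tissues did not overlap in 451 (47.6%), against 49.8% of all tested.

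One of the 8 largest rises was behind the gene of a cysteine protease inhibitor WSCP (BraA07g036660.3C), a water-soluble chlorophyll protein of the Kunitz inhibitor family known from cabbage relatives. The class p transcript (A07 25645829 to 25646697), 891 bases behind the gene, had 6822, 7448 and 8233 counts in petiole and 63, 104 and 83 in leaf. It stood at 53.8 ± 8.10 CPM in petiole and 0.786 ± 0.17 CPM in leaf (SD, n = 3), with no overlap, and rose by 6.10 ± 0.25 (SE, log2; adjusted p = 6.52e-05). The WSCP transcript had 16447, 18325 and 17177 counts in petiole and 5576, 5372 and 5635 in leaf, a rise of 1.24 ± 0.082 (SE). The log2 ratio was higher in petiole by 4.70 ± 0.29 (SE; adjusted p = 0.00339), called in every fit without 1 library, and the nearest other gene lay 3519 bases away.

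A class p transcript 91 bases behind an endoglucanase 6-like gene (BraA09g013860.3C), a cellulose-cutting enzyme of the wall, rose in step with it. It had 1112, 1075 and 1081 counts in petiole and 64, 80 and 38 in leaf, and its gene 10143, 10272 and 9561 in petiole and 612, 589 and 441 in leaf. The rises were 3.76 ± 0.34 and 3.78 ± 0.15 (SE, log2), and the log2 ratio was -0.18 ± 0.39 (SE). Another, behind a lipid phosphate phosphatase beta gene (BraA01g013180.3C), had 1420, 1181 and 939 counts in petiole and 34, 25 and 40 in leaf and rose by 4.73 ± 0.31 (SE), while its gene was not called.

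Behind BraA04g027620.3C, described as like the mitochondrial open reading frame AtMg00810, a class p transcript had 622, 519 and 564 counts in petiole and 0 in leaf (at least 428-fold higher). Its gene had 68, 72 and 105 counts in petiole and 0 in leaf, and a jacalin-related lectin gene lay nearer, at 462 bases. Class p transcripts behind DEHYDRATION-INDUCED 19 homolog 6 (BraA09g005310.3C; 4.73), a ubiquitin-conjugating enzyme E2 36-like gene (BraA09g058060.3C; 4.27), the uncharacterized gene BraA03g049930.3C (5.95) and a glutathione S-transferase T2-like gene (BraA05g028460.3C; 6.31) completed the 8 largest rises on the log2 scale. The last 2 of these calls were lost in 2 and 5 of the 6 fits without 1 library, and the other 6 rises were kept in all.

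Among the falls, the class p transcript behind a bHLH71-like transcription factor gene (BraA06g041760.3C) was 5267 bases long and had 115, 81 and 65 counts in petiole and 1640, 1856 and 1442 in leaf. It fell by 4.66 ± 0.25 (SE, log2; adjusted p = 0.000149), and its gene, at 22 to 84 counts in petiole and 48 to 141 in leaf, was not called. bHLH71 is one of the factors that act in stomatal development in Arabidopsis. The stomatal marker SLAC1 was at 0 in petiole, as given above, and its part here was not tested.

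Behind an alpha-humulene/beta-caryophyllene synthase gene (BraA03g062560.3C), which makes volatile terpenes, a class p transcript had 3, 8 and 15 counts in petiole and 464, 245 and 338 in leaf and fell by 5.69 ± 0.81 (SE, log2). Its gene had 30, 0 and 0 counts in petiole and 374, 447 and 376 in leaf, which did not overlap but were not called (adjusted p = 0.102). The class p transcript behind ELF4-LIKE 2, a relative of a circadian clock protein (BraA02g021140.3C), fell by 4.02 and its gene by 1.55, and another gene lay nearer to it. Those behind the DNA-binding protein gene OSB3 (BraA06g042800.3C), a cyclic nucleotide-gated channel gene (BraA05g029890.3C), a bZIP23-like gene (BraA03g043330.3C) and BraA06g040520.3C fell by 4.65, 3.85, 3.47 and 3.46. All 8 largest falls were kept in every fit without 1 library.

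The remaining fall of these 8 lay beside the A06 block. MSTRG.17002.1, behind BraA06g023110.3C, starts 4327 bases after the end of the block and had 1, 0 and 1 counts in petiole and 4471, 1880 and 1821 in leaf. The class p transcript nearest to the block (MSTRG.17001.1), 3483 bases after it and behind the same gene, had 1, 0 and 1 counts in petiole and 105, 100 and 76 in leaf. Of class o, the nearest member before the block ended at 14717745, while the first inside starts at 15079018. That outside member stood at 2.74 CPM in petiole and 12.4 CPM in leaf. The nearest class o member after the block, 21124 bases from its end, stood at 3.10 and 6.32 CPM. The first class o transcript inside the block stood at 25.3 CPM in petiole and 1526 CPM in leaf. It had 11244, 8 and 7 counts in petiole and 25, 33362 and 447195 in leaf, and the tissues overlapped. Petiole library 1 and leaf library 3 held most of these counts. The last stood at 0 in petiole and 3936 CPM in leaf, all of it in leaf library 2.

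**Figure D4:**
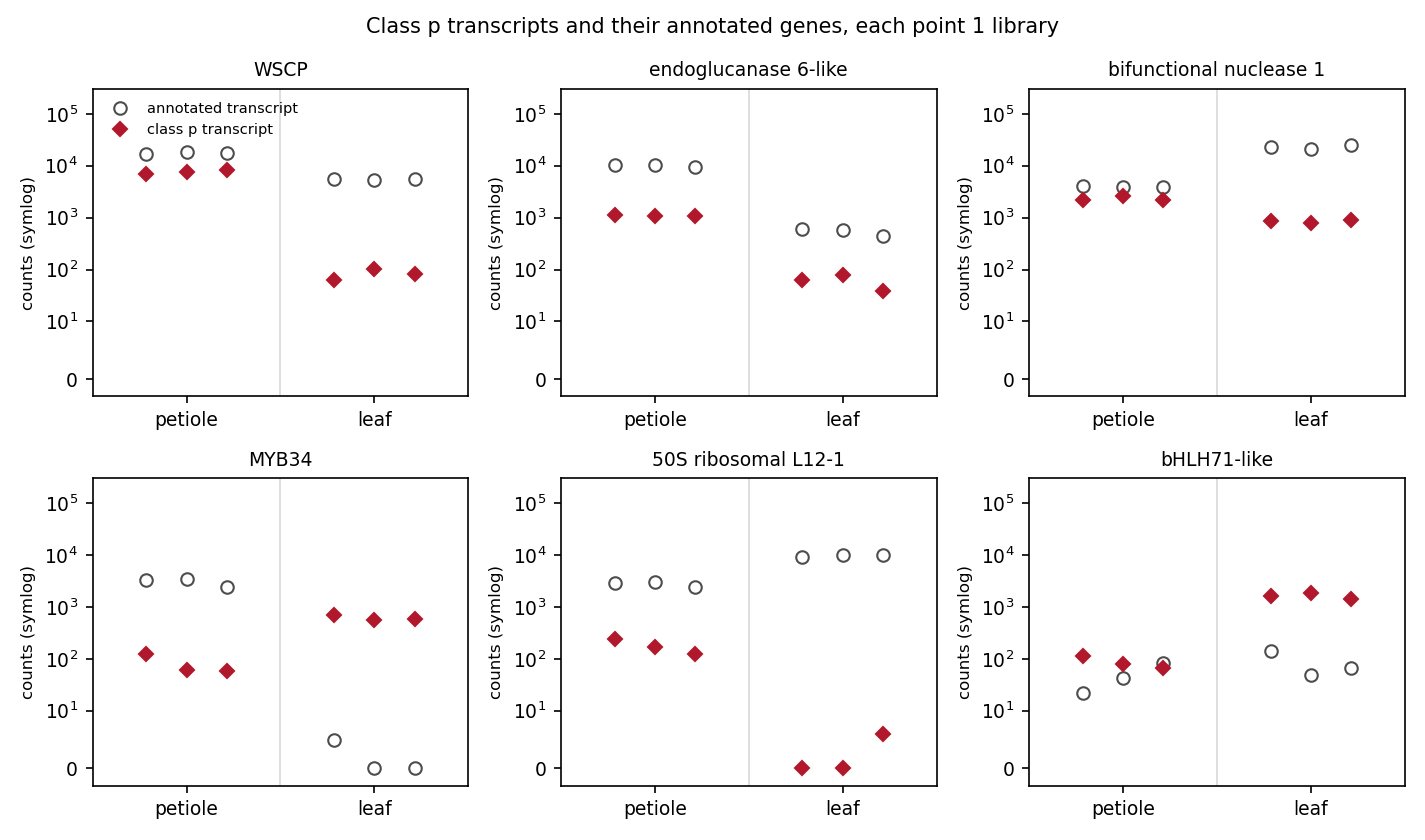
Counts per library of 6 class p transcripts (red diamonds) and of the annotated transcripts of the genes before them (open circles), petiole left and leaf right, on a symmetric log axis that is linear under 10 counts. The endoglucanase 6-like transcript keeps a constant distance to its gene, the WSCP, bHLH71-like and 50S ribosomal L12-1 transcripts do not, and the MYB34 and bifunctional nuclease 1 transcripts move against their genes.

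By gene names, 42 class p transcripts of plastid genes were tested and 2 rose and 7 fell, against 148 rises and 689 falls of 1567 annotated ones, but on the FPKM scale 15 were called higher and 5 lower. The chlorophyll-binding markers were lower in petiole, as given above, and their part in these counts was not tested. Of 3 class p transcripts with a photosynthesis name 2 fell, against 89 of 116 annotated ones. The transcript behind chlorophyll a-b binding protein CP29.3 (BraA05g006030.3C) fell by 2.59 on the log2 scale and its gene by 2.86. The transcript behind the photosystem II protein gene psbY (BraA07g033020.3C) fell by 1.86 and its gene changed by -3.13, and the transcript's call was lost in 5 of 6 fits without 1 library. Of 15 cell wall transcripts 3 rose and 4 fell, against 170 rises and 39 falls of 374 annotated ones. A pectinesterase transcript (BraA03g025420.3C) rose by 2.67 and its gene by 4.16. A class p transcript behind an arabinogalactan protein 1-like gene (BraA02g044540.3C) had 502, 475 and 539 counts in petiole and 1783, 1582 and 1939 in leaf and fell by 2.21, while its gene was not called.

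Over all tested transcripts the shares were 15.2% higher and 13.8% lower, and the counts of annotated transcripts stand beside each list here. Of 61 transcription factor names 3 rose and 5 fell (annotated, 236 and 276 of 1365). Of 21 receptor names 3 rose and 0 fell (124 and 114 of 690), and of 42 ubiquitin and proteasome names 5 rose and 5 fell (130 and 158 of 991). On the FPKM scale the transcription factor split was 12 higher and 9 lower. Of 17 hormone names 1 rose and 3 fell (140 and 75 of 423). RNA processing had 2 rises and 1 fall of 13 (36 and 54 of 418), and water and ion transport 1 and 2 of 18 (189 and 105 of 728). Cytosolic ribosome names had 1 rise of 14 (142 and 2 of 256), lignin 1 rise of 4 (49 and 27 of 124), and genes with no named protein 30 rises and 38 falls of 372 (1059 and 1117 of 7566). The stress list had 4 rises and 2 falls of 23 (68 and 81 of 462), with a bifunctional nuclease and a nuclear pore protein among them by the keyword given above. The only glucosinolate transcript was not called, and no class p transcript had a jasmonate name.

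For the next 5 fragments the ratio to the gene was not called by limma in any, and their counts did not overlap between the tissues. An ethylene-responsive transcription factor 4-like gene (BraA01g036870.3C) had a class p transcript 19 bases behind it with 773, 693 and 634 counts in petiole and 288, 304 and 266 in leaf, a rise of 0.88 on the log2 scale beside a rise of 0.87 for the gene, though the call was lost in 5 of 6 fits without 1 library. Behind a RHA1B-like ubiquitin ligase gene (BraA09g014940.3C), 243, 309 and 335 counts in petiole and 24, 8 and 18 in leaf gave a rise of 3.73, beside 1.94 for the gene. Behind a nucleobase-ascorbate transporter 12 gene (BraA04g019950.3C) the fragment had 392, 241 and 281 counts in petiole and 530, 639 and 574 in leaf and fell by 1.34, while the gene rose (log2 difference 0.83). Behind a TCP21-like transcription factor gene (BraA02g002690.3C) the fragment fell by 1.85, with 594, 621 and 618 counts in petiole and 1753, 1943 and 1310 in leaf, and the gene was not called. A fragment behind a proteasome subunit beta type-5-B gene (BraA09g060420.3C), which encodes a catalytic subunit, had 0 counts in petiole and 53, 98 and 72 in leaf (at least 98.2-fold lower), and the gene was not called. A wall-associated receptor kinase-like 18 transcript (BraA01g006700.3C) had 75, 72 and 139 counts in petiole and 0 in leaf (at least 72.9-fold higher), and its gene was at 0 throughout.

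Class p transcripts and their genes mostly moved in the same direction where both were called. Over 673 pairs the differences correlated at r = 0.38 and rho = 0.33, with the same limits as before. In 57 pairs both were called, 41 of them in the same direction (71.9%) and 16 in opposite directions, against 85.0% in the same direction over all pairs of the table. The difference between these shares was not tested. Pairs with a strand given had 19 of 22 in the same direction, and pairs with none had 22 of 35.

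The likeness to the gene was lower at larger gaps. With gaps of 0 to 250, 251 to 500, 501 to 1000 and 1001 to 2000 bases, r was 0.50, 0.48, 0.38 and 0.26, over 172, 132, 176 and 193 pairs, and rho was 0.54, 0.37, 0.32 and 0.16. The median size of the log2 ratio difference was 0.63, 1.05, 1.15 and 1.19 in the same order. Where both were called, 13 of 14, 8 of 10, 11 of 18 and 9 of 15 pairs moved in the same direction. Where another gene was nearer than the named one, rho was 0.08 over 153 pairs, and 0.39 over the other 520. These are descriptions with no test across transcripts.

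**Figure D5:**
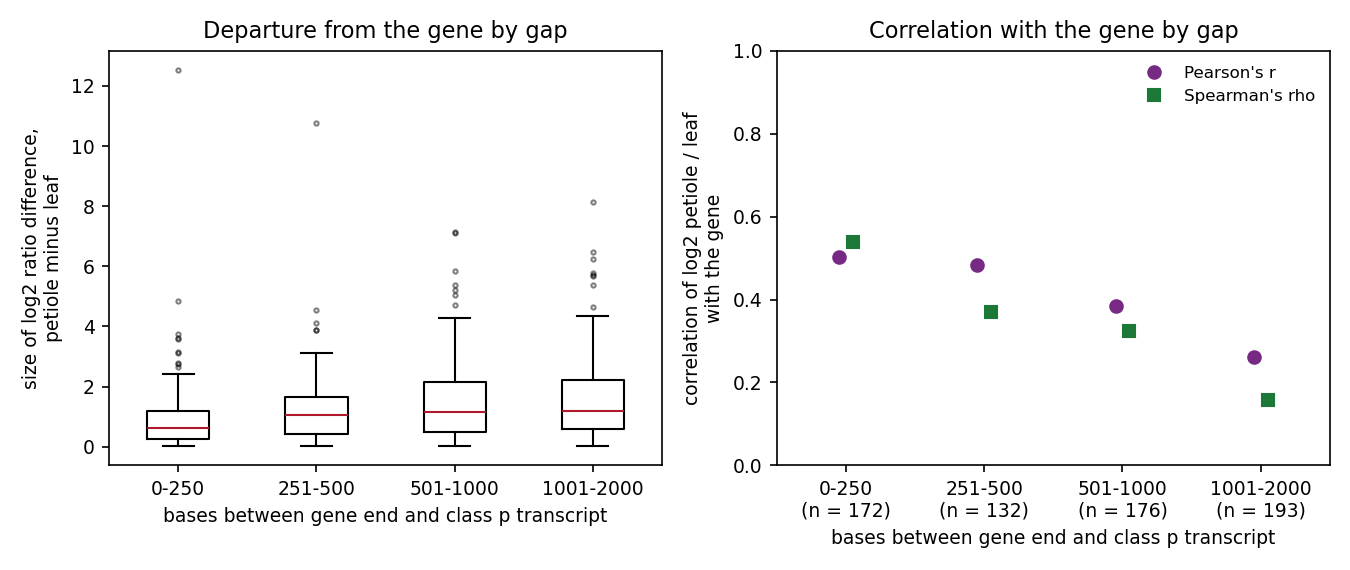
Left, the size of the log2 difference in the ratio of class p transcript to gene between petiole and leaf, by the gap between them (boxes, quartiles with the median in red; whiskers, 1.5 interquartile ranges; points, pairs beyond them). Right, the correlation of the log2 differences of transcript and gene in the same bins: it runs from 0.50 (r) and 0.54 (rho) under 251 bases to 0.26 and 0.16 above 1000 bases.

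The ratio to the gene differed in 38 of 673 class p pairs, 21 higher and 17 lower in petiole, or 5.65% (3.12% and 2.53%) against 2.13% of all pairs. The 17 include 3 pairs with transcript and gene both at 0 in all libraries of 1 tissue, where the pseudocount sets the ratio. These shares were not corrected for such pairs. Leaving out 1 library kept 6 of the 38 in every fit, and 23 were called in none of these fits.

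MYB34 (BraA03g043830.3C), a transcription factor that switches on indole glucosinolate genes in Arabidopsis, had the largest fall of the ratio. The class p transcript, 463 bases behind it, had 122, 61 and 57 counts in petiole and 709, 553 and 580 in leaf and fell by 3.37 ± 0.39 (SE, log2; adjusted p = 0.00225). The MYB34 transcript had 3255, 3482 and 2412 counts in petiole and 5, 0 and 0 in leaf and rose by 10.3 ± 1.36 (SE; adjusted p = 0.00396), and a spliced variant of MYB34 (class j) had 3902, 4143 and 4844 in petiole and 7, 25 and 16 in leaf. Every leaf library was higher for the fragment and every petiole library for the gene. The log2 ratio was lower in petiole by 10.8 ± 0.58 (SE; adjusted p = 0.00215) and stayed between -11.0 and -10.5 when 1 library was left out. With the MYB34 gene at 5, 0 and 0 counts in leaf, below the pseudocount, the size and range of this ratio depend on it. The next other gene lay 5497 bases away.

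Behind bifunctional nuclease 1 (BraA02g022730.3C) a class p transcript rose while its gene fell. It had 2216, 2550 and 2193 counts in petiole and 857, 790 and 908 in leaf, a rise of 1.04 ± 0.13 (SE, log2). The nuclease transcript had 4023, 3841 and 3867 counts in petiole and 22730, 21083 and 25248 in leaf and fell by 2.97, and the log2 ratio was higher by 3.98 ± 0.22 (SE; adjusted p = 0.00215), again in every fit without 1 library. The transcript lay 1813 bases behind the gene and 2022 bases from the next.

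The chloroplast ribosomal protein L12-1 gene (BraA02g037930.3C) fell by 2.22 ± 0.077 (SE, log2), with 2886, 3027 and 2427 counts in petiole and 9241, 9911 and 9999 in leaf. The class p transcript 1204 bases behind it had 240, 167 and 124 counts in petiole and 0, 0 and 6 in leaf, with no overlap, but was not called by itself (adjusted p = 0.0530). The ratio was higher by 5.72 ± 0.49 (SE; adjusted p = 0.00831) in every fit. With the transcript at 0, 0 and 6 counts in leaf, its size depends on the pseudocount. A second gene of that protein type, L12-3 (BraA09g003330.3C), had 75, 119 and 58 counts in petiole and 342, 407 and 492 in leaf, and the class p transcript behind it had 882, 924 and 707 in petiole and 357, 409 and 360 in leaf. That ratio was higher by 3.28 ± 0.51 (SE; adjusted p = 0.0391), lost in each fit without 1 library.

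In some called pairs the gene was at 0 in 1 tissue. The transcription factor gene bHLH57 (BraA09g001050.3C) had 0 counts in all petiole libraries and 1234, 1515 and 1416 in leaf, and its class p transcript had 15, 23 and 55 in petiole and 4, 11 and 0 in leaf. The ratio was higher by 8.14 ± 0.77 (SE; adjusted p = 0.0106), a call lost without leaf library 1. The receptor kinase gene PERK4 (BraA09g011410.3C) had 0 in all petiole libraries and 398, 353 and 287 in leaf, against 64, 82 and 68 in petiole and 22, 0 and 0 in leaf for the transcript behind it. With the bHLH57 and PERK4 genes at 0 in petiole, the size of their ratio differences depends on the pseudocount. The gene was at 0 in leaf for an L-ascorbate oxidase-like gene (BraA02g009330.3C), with 3172, 5322 and 2993 counts in petiole and 0 in leaf, and 61, 19 and 15 in petiole and 0 in leaf behind it. A thionin gene (BraA03g028420.3C), of a family of small antimicrobial proteins, had 1570, 1676 and 1552 counts in petiole and 4, 4 and 0 in leaf, and the transcript behind it 16, 14 and 38 in petiole and 0 in leaf. A 2-oxoglutarate-dependent oxidoreductase-like gene (BraA01g025360.3C) had 2149, 1979 and 2020 counts in petiole and 0 in leaf, and the transcript behind it 85, 12 and 5 in petiole and 0 in leaf. With both at or near 0 in leaf, the leaf ratio of these 3 pairs is set by the pseudocount, so their ratio calls compare no measured leaf ratio. They remain among the 38 called class p pairs given above, and among the coloured points in the plot of transcript against gene differences. No difference in ratio is concluded for these 3 pairs. Over class p, 3 of the 17 lower ratio calls had transcript and gene both at 0 in all libraries of 1 tissue, and none of the 21 higher ones did.

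The ratio rises behind PERK4, the chloroplast chaperone gene dnaJ 8 (BraA02g025470.3C; 5.38) and BraA07g038950.3C (5.05) and the ratio fall behind BraA03g012270.3C (-5.36) were each lost in 5 or 6 of the 6 fits without 1 library. Peroxidase 67 (BraA02g011630.3C), of the wall and lignin peroxidases, rose by 2.48 and the class p transcript behind it by 0.57. That transcript had 24224, 21767 and 20926 counts in petiole and 10804, 11654 and 11498 in leaf, and the log2 ratio fell by 1.89 ± 0.18 (SE; adjusted p = 0.0106), a call lost in 1 of 6 such fits.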

How the data were processed

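Petiole and leaf of Chinese cabbage were compared with 3 libraries each, grouped by the tissue in the labels. The deposited isoform table lists each linear transcript with its class code, gene name and, per library, a count and an FPKM value, per the file headers. The counts are whole numbers as deposited, and since they follow FPKM times transcript length they were treated as estimated counts; how the authors made them is not given in the sources used here. The authors used HISAT2, StringTie and TopHat, per the submitters' processing notes, which give no versions in the sources used here. The genome build of the coordinates is likewise not given in the sources used here. The deposited FPKM values list a zero as 0.0001, which was set to 0. The circular RNA table was not used here.

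TMM scaling and edgeR's quasi-likelihood test (edgeR 4.0.16, R 4.3.3, Benjamini-Hochberg adjustment, threshold 0.05) were applied to all 52982 transcripts with a mean of at least 10 counts. Ratios of a transcript to its annotated gene were tested with limma 3.58.1 (trend, robust) on log2 ratios of CPM + 0.1 over 19154 pairs. Shares and numbers detected were compared with two-sided exact permutation tests (SciPy 1.17.1). DESeq2 1.42.0 and limma on log2(FPKM + 1) were alternatives, as were other filters, a replicate block, a larger pseudocount and leaving out each library. A further 3 alternatives were chosen after the data were seen. Tables and figures were made with Python 3.11.15, pandas 2.3.3, NumPy 2.4.6 and Matplotlib 3.10.9.

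Per class, the text names the 8 largest called rises and falls among transcripts without overlap and with a mean of at least 100 counts. It also names the 5 most abundant and the 5 largest called ratio changes each way. Up to 2 called rises and falls per list were drawn by adjusted p, and the text names only some of these. The 15 lists are keyword matches to the gene descriptions (photosynthesis, plastid, cytosolic ribosome, jasmonate, glucosinolate, cell wall, lignin, water and ion transport, transcription factor, receptor, hormone, stress protein, RNA processing, ubiquitin, and no named protein), and a keyword can match inside another word. Members, lists and tests were chosen with earlier results of these data known.

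On simulated counts for the petiole and leaf comparison, with 52982 transcripts, edgeR recovered 20% of 1.5-fold, 82% of 2-fold, 100% of 4-fold and 96% of 8-fold changes, with 13 false calls. On 19016 simulated pairs, limma recovered 6%, 62%, 100% and 100% at the same folds, with 3 false calls. The simulated counts had the same fixed spread for every transcript, with transcript and gene drawn independently. They held no counts that switch between libraries, as some members here do. These rates therefore do not give the recovery or false calls for such members. Depth ran from 111518411 to 132861243 estimated counts per library.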

Additional observations from a re-analysis of the deposited data

How the results depend on the processing

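The class o split of 160 higher and 168 lower became 251 and 302 with DESeq2, 374 and 111 with limma on log2(FPKM + 1), 396 and 538 with counts summed over the assembly locus, and 119 to 147 and 124 to 146 when 1 library was left out. The class p split of 93 and 94 became 191 and 205 with DESeq2, 268 and 91 on the FPKM scale, and 47 to 74 and 62 to 83 with 1 library left out. The lowest class p rises were 53 without petiole library 1, 47 without petiole 2 and 58 without petiole 3, and the lowest class p falls 62 without leaf 2. No filter, a mean of 50 counts, removal of the A06 block and removal of transcripts with zeros beside 1000 counts kept all 4 counts within 1.5 times.

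Replicate numbers did not pair the libraries (same-number correlations of deviations -0.0077, -0.0053 and 0.017). With a replicate block the calls were 90 higher and 86 lower for class o and 36 and 47 for class p. Under the block limma called 0 ratios higher and 0 lower in each class, with 100 class o and 104 class p pairs at an unadjusted p below 0.05. Ratio calls were 19 higher and 35 lower for class o and 49 and 44 for class p with a pseudocount of 1 CPM. With 1 library left out they were 1 to 5 and 4 to 11 for class o and 5 to 8 and 2 to 5 for class p.

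The class o share difference (-0.26 percentage points) was -0.86 with the A06 block out of the denominator, 0.20 without the 5 most abundant transcripts, and -0.309 to -0.150 with 1 library left out. The class p difference (0.80) was 0.24 (exact permutation p = 0.6) with the A06 block out of the denominator, 0.15 without the 5 most abundant, and 0.564 to 1.21 with 1 library left out. At 10 counts, 37.7 more class o and 59.3 more class p transcripts were detected in petiole, and leaving out 1 library gave 29.8 to 34.7 and 32.8 to 44.8.

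Of single log2 differences between the tissues, 1300 alternatives kept direction and side of the threshold, 125 lost the call, 15 gained it and 18 changed sign. Of single ratios, 85 were kept and 101 lost the call. On the FPKM scale the sign changed for MSTRG.10518.4 (0.23), MSTRG.10518.9 (1.29), MSTRG.1517.1 (class p, behind an RNA helicase 1 gene; 0.081), MSTRG.26581.1 (class o of the nuclear transport factor gene; 0.32), MSTRG.28092.1 (-3.47), MSTRG.3916.1 (0.55) and MSTRG.3959.1 (-0.71). Under the replicate block it changed for MSTRG.10518.9 (3.94), MSTRG.28092.1 (-0.996) and MSTRG.3959.1 (-2.29). With 1 library left out, uncalled abundant transcripts ranged from -1.92 to 17.57 (MSTRG.10518.9), -0.44 to 1.14 (MSTRG.15430.1), -0.24 to 0.76 (MSTRG.28092.1), -0.29 to 0.16 (MSTRG.3916.1) and -15.71 to 4.10 (MSTRG.3959.1). The cause of these changes was not tested, apart from the fewer libraries in the fits that leave one out. Class p transcripts had a median of 59.5 counts per library, and the recovery of changes by count level was not tested.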
